A study of Mus musculus with 20 samples.

Results

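The Clcn5 miRNA cluster is a group of miRNA hairpins in the gene Clcn5 on the mouse X chromosome. Its members were chosen by name: every row for miR-188, miR-362, miR-500, miR-501, miR-502a, miR-502b, miR-532 or miR-660, with any arm or none. This gave 9 of the 880 miRNA names listed in all files (among them mmu-miR-188-3p and mmu-miR-501-3p; the mouse prefix is dropped from here on), namely both arms of miR-188, miR-362, miR-500 and miR-501, and miR-532-5p. No name for miR-532-3p was listed, so its level was not seen here. The rule used names only and no measured value.

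Liver small RNA was sequenced from 5 PiZ mice, which express the Z form of the human serum protein alpha-1 antitrypsin from a transgene, and from 5 wild-type (WT) mice, all C57BL/6 and 6 weeks old. The Z protein misfolds and builds up inside hepatocytes. The sources used here do not give the transgene's promoter, its copy number or the sex of the mice. Should the sexes differ between the genotypes, sex and genotype cannot be told apart for these X-linked miRNAs. Each library was run 2 times, and the runs were summed, so the mouse is the replicate.

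A miRNA is cut from a hairpin in a longer transcript, and either strand of the cut duplex, the 5p or the 3p arm, can be loaded into an Argonaute protein. The loaded strand finds its target mRNAs mainly through its seed, bases 2 to 8. Clcn5 encodes a chloride and proton exchanger of endosomes that is best known from the kidney, where its loss causes Dent disease in humans. miRNAs inside a protein-coding gene are often made from that gene's transcript, so hairpins of such a cluster can share a promoter and still end at very different levels.

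In the RefSeq table of GRCm38.p6, the 5 hairpins of the listed members all lie on the minus strand. In the order in which Clcn5 is transcribed, they are miR-532 (chrX:7248402-7248497), miR-188 (chrX:7247989-7248056), miR-362 (chrX:7241982-7242046), miR-501 (chrX:7241243-7241351) and miR-500 (chrX:7237683-7237774). The 5 hairpins lie within 10815 bases. The GENCODE M21 annotation of the same build places Clcn5 at chrX:7153810-7319358, also on the minus strand, and none of the hairpins overlaps an exon of its 5 transcripts. Of these, 3 transcripts span each hairpin, so the hairpins are intronic there. The deposited files give no coordinates and no build, so these positions are those of the annotation alone. Hairpins for miR-502a, miR-502b and miR-660, which gave no rows, were not looked up.

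The mature sequences show which members could bind the same targets and which could be confused in counting. They are printed 5′ to 3′ from the RefSeq table, with the seed in capitals. A mature sequence was found for 8 of the 9 members. The 3p arms of miR-500, miR-501 and miR-362 come first, since they are among the best-counted members:
miR-501-3p: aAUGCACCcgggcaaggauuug
miR-500-3p: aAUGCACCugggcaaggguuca
miR-362-3p: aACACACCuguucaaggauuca
The 5p arms of the same hairpins are much rarer in these libraries:
miR-501-5p: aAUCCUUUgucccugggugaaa
miR-500-5p: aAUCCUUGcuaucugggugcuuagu
miR-362-5p: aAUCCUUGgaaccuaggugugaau
The arms of miR-188 stand apart in sequence:
miR-188-3p: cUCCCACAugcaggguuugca
miR-188-5p: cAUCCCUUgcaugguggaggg

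miR-501-3p and miR-500-3p share the seed AUGCACC and are identical at 18 of 22 bases. Counted from 1 at the 5′ end, with the base of miR-501-3p first, they differ by C9U, A18G, U21C and G22A. miR-362-3p has another seed, but is identical to miR-500-3p at 17 of 22 bases. Among the 5p arms, miR-362-5p and miR-500-5p share the seed AUCCUUG, and the first 7 bases are the same in the 5p arms of miR-362, miR-500 and miR-501. Reads of such similar miRNAs can be assigned to the wrong name, and how the authors treated a read matching several names is not stated in the sources at hand. All values of the 9 rows were whole numbers in all files, so no read was divided between names in these rows.

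Outside the cluster, 1 miRNA listed in all files shared a seed with 1 of the 8 members whose sequence was found. This is miR-329-3p, a miRNA of the imprinted Dlk1-Dio3 region on chromosome 12, which shares ACACACC with miR-362-3p (miR-329-3p: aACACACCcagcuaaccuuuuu). miR-329-3p averaged 0.836 ± 0.437 CPM (reads per 1000000 scaled reads) in PiZ mice, with 0.606 ± 0.219 CPM in WT mice (SD, n = 5 each), too rare to be tested. miR-362-3p, with a mean of 14.0 CPM in PiZ and 12.3 CPM in WT mice, was the more abundant holder of the seed in either genotype.

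Library totals ranged from 2433273 to 10780801 reads in PiZ mice and from 1307857 to 10012788 reads in WT mice. The files carry 2 lists of names, a longer one (PiZ mice 1 and 2, WT mice 1 to 3) and a shorter one (PiZ mice 3 to 5, WT mice 4 and 5), and the shorter-list libraries are also the deeper ones. After scaling, 1 read was worth 0.0887 CPM in the deepest library and 0.715 CPM in the shallowest. WT mice 1 and 3 were the shallowest libraries and had low levels of several cell type markers (given with the ratios between members). The summed level, and for some members the level, share or contrast, are therefore also given without both. The hepatocyte miRNA miR-122-5p stood at 6807 to 11138 CPM in PiZ and 11669 to 14245 CPM in WT mice, ranking at 13 of all names. In whole liver, fewer cells of a type and less RNA per cell cannot be told apart.

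The listed members of the cluster made up between 0.0253% and 0.0473% of the reads of a library, 16571 reads in all. Their summed level was 320, 270, 259, 278 and 364 CPM in PiZ mice 1 to 5. In WT mice 1 to 5 it was 443, 276, 397, 270 and 293 CPM. The genotypes overlapped, and the highest sums were those of WT mice 1 and 3. The sums averaged 298 ± 43.7 CPM over PiZ mice, with 336 ± 78.8 CPM over WT mice (SD, n = 5 each), a log2 ratio of -0.17. The WT mean without WT mice 1 and 3 was 279.9 ± 11.9 CPM (SD, n = 3) and the log2 ratio turned to 0.091. No test was made of this sum.

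**Figure D1:**
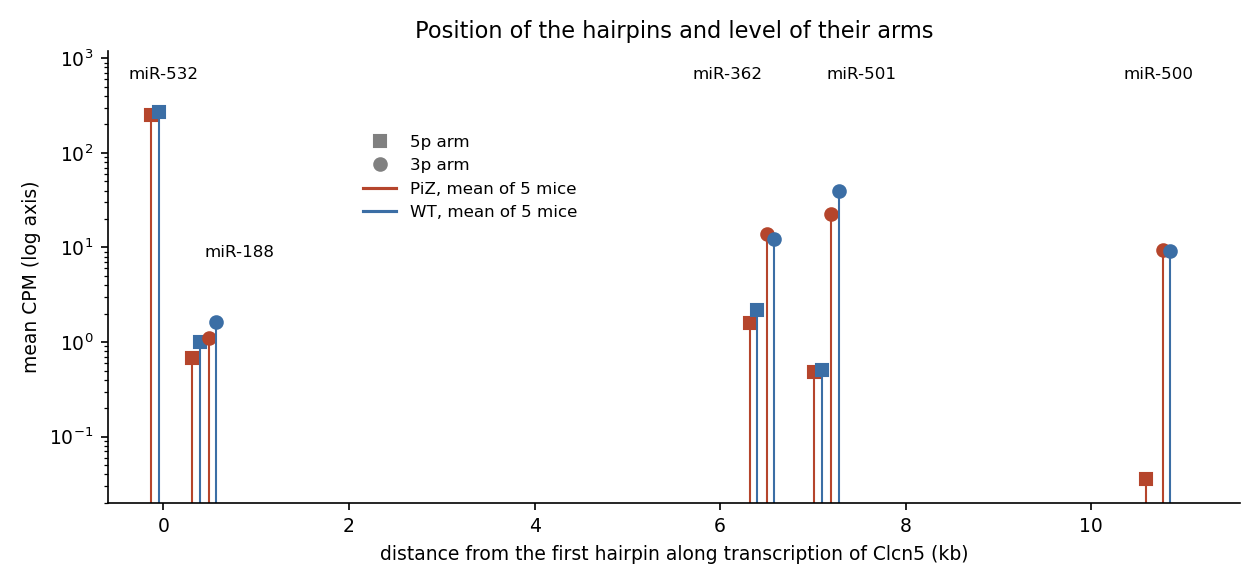
Mean level of each arm (CPM, log axis; squares, 5p arms; circles, 3p arms) against the distance of its hairpin from the first hairpin along the direction of transcription (kb), for PiZ and WT mice (mean of 5 mice each). Symbols of a hairpin are set slightly apart sideways, and miR-500-5p, with 0 reads in WT mice, has no WT symbol; miR-532 and miR-188, the closest neighbours, stand far apart in level.

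Reads were spread very unevenly over the members. Each read covers a whole mature miRNA, so levels need no correction for length, though ligation during library preparation can favour some sequences. In order of mean CPM over the 10 mice, the members were miR-532-5p, miR-501-3p, miR-362-3p, miR-500-3p, miR-362-5p, miR-188-3p, miR-188-5p, miR-501-5p and miR-500-5p, from 259 to 0.0177 CPM. This order does not follow the position of the hairpins. The miR-532 and miR-188 hairpins are separated by 345 bases, yet miR-532-5p had 13769 reads and the miR-188 arms 69 (3p) and 37 (5p). miR-501 and miR-362, separated by 630 bases, had 1256 and 792 reads of their 3p arms.

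Some neighbours in this order could not be separated. miR-532-5p had more reads than miR-501-3p in 10 of 10 mice, and miR-501-3p had more than miR-362-3p in 10 of 10. miR-362-3p exceeded miR-500-3p in 8 of 10 mice, the exceptions being WT mice 1 and 3. miR-500-3p exceeded miR-362-5p in 10 of 10 mice. Below that the order was loose: miR-362-5p exceeded miR-188-3p in 6 of 10 mice, miR-188-3p exceeded miR-188-5p in 7, and miR-188-5p exceeded miR-501-5p in 6.

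**Figure D2:**
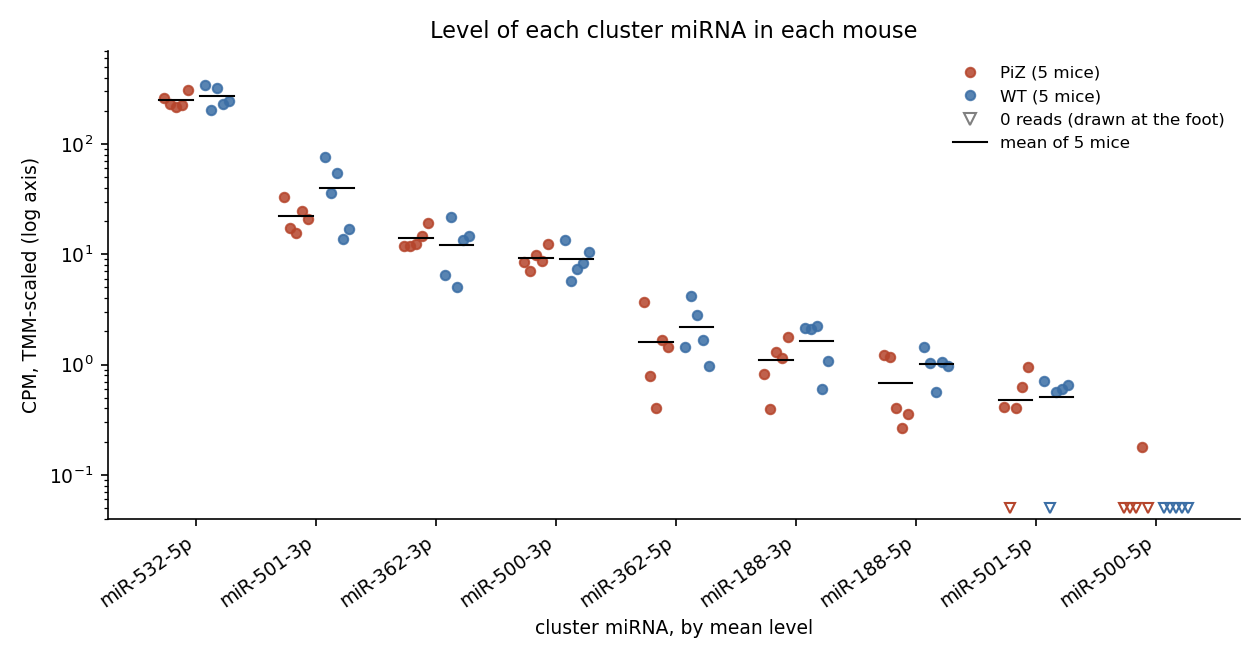
Level (CPM, log axis) of the 9 cluster miRNAs in each of 5 PiZ and 5 WT mice, with the mean as a bar and mice with 0 reads drawn as open triangles at the foot of the plot. PiZ and WT points overlap for every member with reads in both genotypes; miR-500-5p has reads in PiZ mouse 4 only and its mean lies below the axis.

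The comparison of PiZ with WT liver asked which miRNAs differ when the Z protein accumulates in hepatocytes. None of the cluster's members passed the test. edgeR's quasi-likelihood test, with the file set as a term, covered 336 miRNAs, of which 31 (9.23%) passed a Benjamini-Hochberg adjusted p of 0.05, 28 (8.33%) higher and 3 (0.893%) lower in PiZ liver. With upper quartile scaling, which shifted the median of all log2 fold changes by -0.16, 22 were higher and 6 lower. 5 of the 9 cluster members had enough reads to be tested, and 0 of 5 passed, with 0 at an unadjusted p under 0.05. DESeq2, which called 14.9% of the same miRNAs, and limma-voom, which called 2.08%, also called 0 of the 5. With 5 members tested, a count of 0 is near each of these backgrounds. PiZ and WT mice did not overlap in CPM for 30 of the 336 tested miRNAs (8.93%), and for 0 of the 5 members. With WT mice 1 and 3 left out, 0 of 410 miRNAs passed. With PiZ mouse 5 left out as well, 25.6% of 390 miRNAs passed, and 0 of the 5 members. The median log2 fold change was -0.085 over the 5 tested members and 0.069 over all 336, and the fold changes of the 5 ran from -0.35 to 0.11.

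miR-532-5p, which has been described as a regulator of RUNX3 in human gastric cancer cells, had the most reads of the listed members. It stood at 260, 231, 218, 226 and 307 CPM in PiZ mice 1 to 5, and at 340, 205, 324, 231 and 247 CPM in WT mice 1 to 5. The PiZ values lay inside the range of the WT values. PiZ mice averaged 249 ± 36.3 CPM, with 269.5 ± 59.3 CPM for WT mice (SD, n = 5 each). Its log2 fold change was -0.085 (SE 0.21, adjusted p = 0.849, edgeR), with a 95% interval that corresponds to 0.684-fold to 1.30-fold. Without WT mice 1 and 3 it turned to 0.084 (adjusted p = 0.778, edgeR), with a WT mean of 227.9 ± 21.4 CPM (SD, n = 3). miR-532-5p is the member measured most closely: its lowest count in a mouse was 393 reads. Counting error alone would give a coefficient of variation of 2.99% in PiZ and 4.04% in WT mice, against 14.6% in PiZ and 22.0% in WT mice seen here. The share of reads in run 1 over that in run 2 was between 0.965 and 1.13 in all mice.

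miR-501-3p, which in rodent neurons has been described as a regulator of the glutamate receptor subunit GluA1, had the lowest fold change of the tested members. It stood at 33.1, 17.3, 15.5, 24.8 and 21.05 CPM in PiZ mice 1 to 5, and at 76.5, 36.0, 54.9, 13.6 and 17.0 CPM in WT mice 1 to 5. WT mice 1, 2 and 3 were above every PiZ mouse, while WT mouse 4 was below every PiZ mouse. The log2 fold change was -0.35 (SE 0.39, adjusted p = 0.637, edgeR), with a 95% interval of 0.430-fold to 1.43-fold. Without WT mice 1 and 3 it was 0.033 (adjusted p = 0.962), with a mean of 22.4 ± 7.00 CPM in PiZ mice (SD, n = 5) and 22.2 ± 12.0 CPM in the remaining WT mice (SD, n = 3). The WT mean over all 5 mice was 39.6 ± 26.4 CPM.

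miR-501-3p was also compared between file sets. The mean was 18.4 ± 4.48 CPM in the shorter-list libraries and 43.6 ± 22.7 CPM in the longer-list libraries (SD, n = 5 each), a log2 difference of -1.08 (SE 0.40, unadjusted p = 0.0194, adjusted p = 0.377, edgeR). 0 of the 5 members passed between file sets, where 0.595% of the 336 miRNAs passed. The log2 difference of miR-362-5p was close to that of miR-501-3p, at -1.02 (SE 0.54, adjusted p = 0.579, edgeR). The other tested members had -0.12 (miR-532-5p), 0.35 (miR-362-3p) and 0.25 (miR-500-3p). Without WT mice 1 and 3, which are both longer-list libraries, the longer-list mean of miR-501-3p was 28.8 ± 10.1 CPM (SD, n = 3). Its log2 difference was then -0.68 (SE 0.31, adjusted p = 0.453, edgeR). That of miR-362-5p was -1.23 (SE 0.63, adjusted p = 0.476, edgeR). The others had 0.060 (miR-532-5p), -0.043 (miR-362-3p) and 0.46 (miR-500-3p). Depth and file set cannot be told apart. Within the shorter-list libraries alone, 3 PiZ against 2 WT mice, the log2 fold change of miR-501-3p between genotypes was 0.38 (adjusted p = 0.509, edgeR). Within the longer-list libraries, 2 PiZ against 3 WT mice, it was -1.16 (adjusted p = 0.246). The difference between these fold changes, tested as an interaction, was 1.50 (SE 0.61, unadjusted p = 0.0335, adjusted p = 0.873, edgeR). 0% of the 372 miRNAs in that test passed. The interaction without WT mice 1 and 3 was 0.91 (SE 0.60, adjusted p = 0.9999, edgeR), with WT mouse 2 as the lone longer-list WT library, which is assumed to vary like the others.

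miR-362-3p had the highest fold change of the tested members. It stood at 11.9, 11.8, 12.5, 14.6 and 19.4 CPM in PiZ mice 1 to 5, and at 6.44, 21.9, 5.04, 13.3 and 14.5 CPM in WT mice 1 to 5. All 5 PiZ mice lay between the WT extremes, and WT mice 1 and 3 were the lowest of the 10, with 9 reads each. The log2 fold change was 0.11 (SE 0.37, adjusted p = 0.899, edgeR), with a 95% interval of 0.615-fold to 1.90-fold. Without WT mice 1 and 3 it turned to -0.27 (adjusted p = 0.536).

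miR-500-3p, the near-copy of miR-501-3p, was the most even after miR-532-5p. It stood at 8.59, 7.09, 9.91, 8.61 and 12.3 CPM in PiZ mice 1 to 5, and at 13.6, 5.74, 7.28, 8.33 and 10.5 CPM in WT mice 1 to 5. The PiZ values again lay within the WT range. PiZ mice averaged 9.30 ± 1.96 CPM, with 9.09 ± 3.06 CPM for WT mice (SD, n = 5 each), and a log2 fold change of -0.0045 (SE 0.29, adjusted p = 0.996, edgeR) and a 95% interval of 0.643-fold to 1.54-fold. Its between-mouse coefficient of variation was 21.04% in PiZ and 33.6% in WT mice, where counting alone would give 14.8% in PiZ and 21.5% in WT mice.

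miR-362-5p, the rarer arm of its hairpin, was the least abundant member with enough reads for a test. It stood at 3.68, 0.788, 0.400, 1.69 and 1.44 CPM in PiZ mice 1 to 5, and at 1.43, 4.17, 2.80, 1.67 and 0.977 CPM in WT mice 1 to 5. PiZ mice 2 and 3 were below all WT mice, on 2 and 4 reads, and the other PiZ mice overlapped the WT mice. The log2 fold change was -0.24 (SE 0.53, adjusted p = 0.823, edgeR), and the 95% interval of 0.379-fold to 1.88-fold leaves room for a change in either direction. It rests on 46 reads in PiZ and 35 reads in WT mice. Without WT mice 1 and 3 the log2 fold change was -0.45 (adjusted p = 0.683, edgeR).

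**Figure D3:**
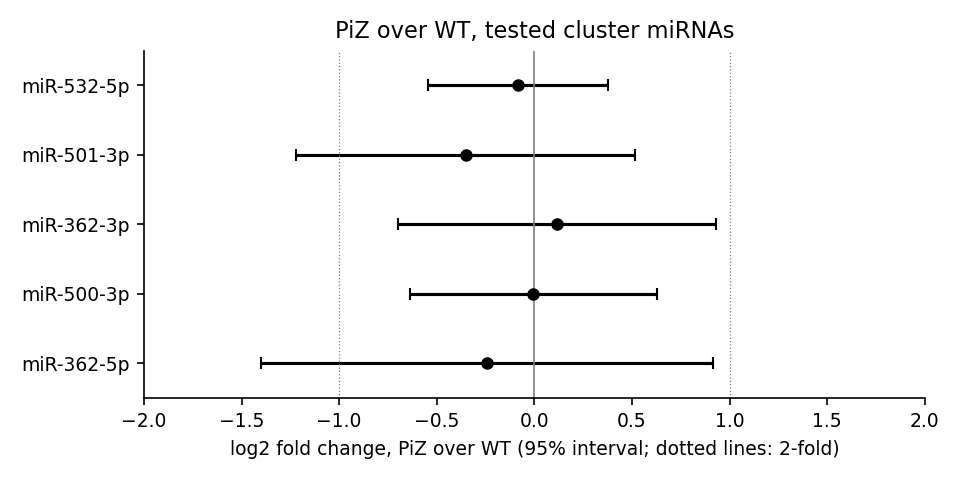
Log2 fold change of PiZ over WT liver for the 5 tested members (points) with 95% intervals (bars), from edgeR's fit over 336 miRNAs. Every interval crosses 0; those of miR-532-5p, miR-362-3p and miR-500-3p lie within 2-fold in either direction, and those of miR-501-3p and miR-362-5p reach past 2-fold lower.

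The other 4 members did not pass the filter on low counts and are given as values. miR-188, which in mice has been linked to the fate of bone marrow stromal cells, stood near the limit of these libraries. miR-188-3p had 44 reads over the PiZ mice and 25 over the WT mice, at 0.818, 0.394, 1.30, 1.15 and 1.79 CPM in PiZ mice 1 to 5, and 2.15, 2.09, 2.24, 0.606 and 1.09 CPM in WT mice 1 to 5. WT mice 1 to 3 were above every PiZ mouse, and WT mouse 4 was below all but PiZ mouse 2. The values of WT mice 1 to 4 rest on 3 or 4 reads each, and those of PiZ mice 1 and 2 on 2 and 1. With no filter on low counts the log2 fold change was -0.34 (adjusted p = 0.851, edgeR).

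miR-188-3p had enough reads for the interaction test, where its difference had the same sign as that of miR-501-3p. The fold change in the shorter-list libraries exceeded that in the longer-list libraries by 2.44 on the log2 scale (SE 0.89, unadjusted p = 0.0206, adjusted p = 0.873, edgeR). In the longer-list libraries, however, it rests on 3 reads in the PiZ mice and 11 in the WT mice. miR-188-5p had 16 reads over the PiZ mice and 21 over the WT mice, and averaged 0.687 ± 0.476 CPM in PiZ mice, with 1.01 ± 0.310 CPM in WT mice (SD, n = 5 each). PiZ mice 3, 4 and 5 were below all WT mice, at 0.400, 0.266 and 0.359 CPM, and each of these values rests on 3 or 4 reads. With no filter its log2 fold change was -0.89 (adjusted p = 0.681, edgeR).

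miR-501-5p had 20 reads over the PiZ mice and 12 over the WT mice, and averaged 0.478 ± 0.350 CPM in PiZ mice, with 0.506 ± 0.289 CPM in WT mice (SD, n = 5 each). PiZ mouse 2 and WT mouse 2 had 0 reads, which allows up to 1.18 CPM in PiZ mouse 2 and 1.57 CPM in WT mouse 2 (3 reads). miR-500-5p was seen as 2 reads in PiZ mouse 4 and nowhere else. PiZ mouse 4 thus had 0.177 CPM, while 0 reads in the deepest WT library allow up to 0.326 CPM, so a difference was not detectable at this depth. These limits and the intervals on shares cover counting error only, since reads are not independent molecules.

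Summed over the mice of a genotype, the 3p arm had more reads in all 4 hairpins with both arms listed, and the hairpins differed in how large its share was. The 3p share of the miR-501 hairpin was 97.4% (95% exact interval 95.9% to 98.4%) in PiZ and 97.7% (96.1% to 98.8%) in WT mice. That of miR-500 was 99.4% (97.9% to 99.9%) in PiZ and 100% (98.1% to 100%) in WT mice. miR-362 kept more of its 5p arm, with a 3p share of 91.7% (89.1% to 93.9%) in PiZ and 89.0% (85.0% to 92.2%) in WT mice. In these 3 hairpins the 3p arm had more reads in all 10 mice. miR-188 leaned less to 1 arm, with more 3p than 5p reads in 3 of 5 PiZ and 4 of 5 WT mice. Its 3p share was 73.3% (60.3% to 83.9%) in PiZ and 54.3% (39.0% to 69.1%) in WT mice. Such shares pool the reads of a genotype, so deeper libraries weigh more. Their intervals do not cover the spread between mice. PiZ mice 1 to 5 had 2, 1, 13, 13 and 15 reads of miR-188-3p, against 3, 3, 4, 3 and 3 of miR-188-5p. WT mice 1 to 5 had 3, 4, 4, 4 and 10 reads of miR-188-3p, against 2, 2, 1, 7 and 9 of miR-188-5p.

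The balance of arms was compared between genotypes with limma on log2 ratios of 5p to 3p reads. No cluster hairpin had the mean of 20 reads per arm set for that test, in which 0% of 64 hairpins passed. With a mean of 5 reads per arm, miR-362 could be tested, with a PiZ minus WT difference of -0.71 (SE 0.50, adjusted p = 0.621, limma), where 0% of 101 hairpins passed. Balance between arms is a ratio within a library and does not depend on library scaling. The pseudocount of 0.5 does move it at low counts, and miR-362-5p had 2 to 19 reads in a mouse.

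The members did not keep a fixed proportion to each other from mouse to mouse. miR-532-5p took 83.4% ± 1.96 of the cluster's reads in PiZ mice, with 80.5% ± 4.81 in WT mice (SD, n = 5 each). miR-501-3p took 7.50% ± 2.03 in PiZ mice, with 11.0% ± 5.34 in WT mice, while miR-362-3p took 4.70% ± 0.665 in PiZ mice, with 4.11% ± 2.79 in WT mice (SD, n = 5 each). Without WT mice 1 and 3 the WT share was 81.4% ± 6.17 for miR-532-5p, 7.97% ± 4.41 for miR-501-3p and 5.94% ± 1.73 for miR-362-3p (SD, n = 3). That of miR-362-3p was then above the PiZ share. In WT mice 1, 2 and 3 miR-501-3p had a high share, and in WT mice 1 and 3 that of miR-362-3p was the lowest of the 10 mice. In WT mouse 1 the share of miR-501-3p was 17.3% (95% exact interval 14.4% to 20.5%) and that of miR-362-3p 1.45% (0.667% to 2.74%). In WT mouse 3 the share of miR-501-3p was 13.8% (11.4% to 16.6%) and that of miR-362-3p 1.27% (0.582% to 2.40%). In WT mouse 2 the share of miR-501-3p was 13.0% (10.3% to 16.2%) and that of miR-362-3p, the highest of the 10 mice, 7.94% (5.78% to 10.6%). In the deeply sequenced WT mouse 5, the share of miR-501-3p was 5.81% (4.96% to 6.76%) and that of miR-362-3p 4.96% (4.17% to 5.85%).

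The ratio of miR-501-3p to miR-362-3p reads brings this out without any scaling. It was 2.79, 1.47, 1.24, 1.70 and 1.09 in PiZ mice 1 to 5, and 11.9, 1.64, 10.9, 1.02 and 1.17 in WT mice 1 to 5. WT mice 1 and 3 lay far above the other 8 mice, which ranged from 1.02 to 2.79. The ratio of miR-501-3p to its near-copy miR-500-3p was 3.86, 2.44, 1.57, 2.88 and 1.71 in PiZ mice 1 to 5, and 5.63, 6.27, 7.54, 1.64 and 1.62 in WT mice 1 to 5. Here WT mouse 2 stood with WT mice 1 and 3, above all PiZ mice, and WT mice 4 and 5 stood at the PiZ low end. The ratio of miR-532-5p to miR-501-3p was 7.85, 13.3, 14.1, 9.13 and 14.6 in PiZ mice 1 to 5, and 4.45, 5.70, 5.90, 16.9 and 14.5 in WT mice 1 to 5. WT mice 1 to 3 were below all PiZ mice in this ratio. The summed hepatocyte list (arms of miR-122, miR-192-5p and miR-194-5p) was 122144 to 250447 CPM in PiZ mice, 213113 to 238847 CPM in WT mice 2, 4 and 5, and 62776 and 86688 CPM in WT mice 1 and 3. Most of this sum is miR-192-5p, at 41468 and 63796 CPM in WT mice 1 and 3, whereas miR-122-5p, at 13597 and 11954 CPM there, lay in the range of the other WT mice. The summed endothelial miR-126a arms were 23357 to 28800 CPM in PiZ mice, 32304 to 41279 CPM in WT mice 2, 4 and 5, and 7897 and 12653 CPM in WT mice 1 and 3. Both lists were thus lowest in WT mice 1 and 3. The 5 mesenchymal markers (arms of miR-143, miR-145a, miR-199a and miR-214) summed to 9875 to 14783 CPM in PiZ mice, 11467 to 16858 CPM in WT mice 2, 4 and 5, and 5771 and 8335 CPM in WT mice 1 and 3. Most of this sum is miR-143-3p, at 4753 and 7396 CPM in WT mice 1 and 3. The row shared by miR-199a-3p and miR-199b-3p was also lowest there. The other members were not low. miR-145a-5p (561 and 343 CPM) and miR-214-3p (78.7 and 58.2 CPM) were above all other mice there. miR-199a-5p (212 and 284 CPM) lay inside the PiZ range. None of these markers had 0 reads over the mice, and their part in the shift of miR-501-3p and miR-362-3p was not tested.

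**Figure D4:**
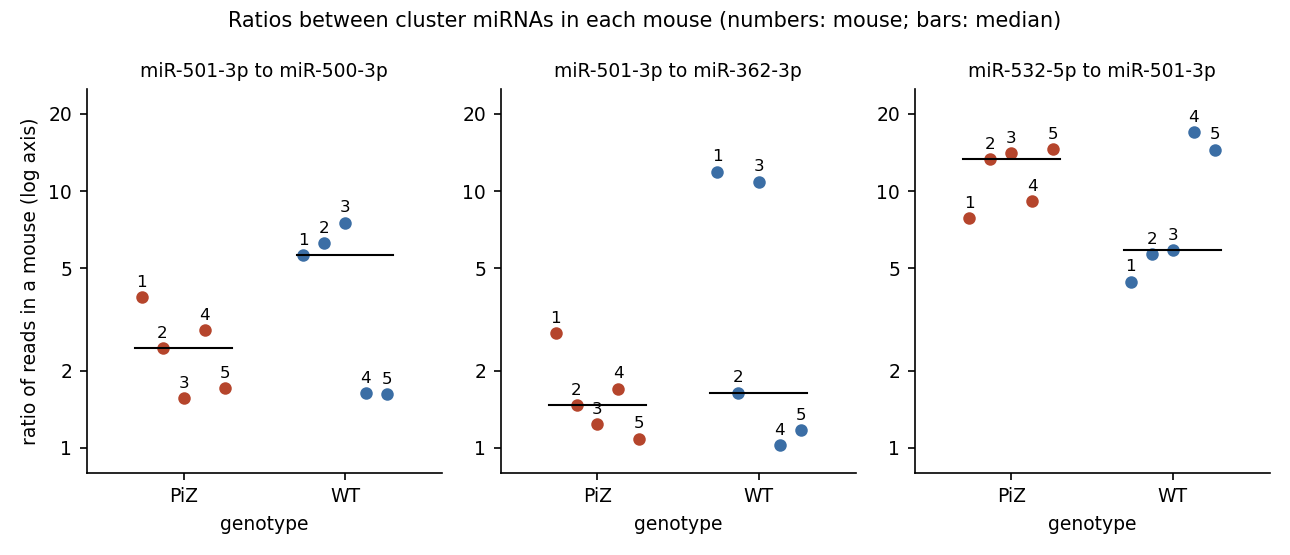
Ratios of reads between 3 pairs of cluster miRNAs in each mouse (log axis; numbers are mice of that genotype, bars are medians). In the middle panel WT mice 1 and 3 lie near 11.9 and 10.9 while the other 8 mice lie between 1.02 and 2.79; in the outer panels WT mice 1, 2 and 3 lie apart from WT mice 4 and 5.

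The miRNAs whose profile over the 10 mice was nearest to that of miR-532-5p lay outside the cluster. Likeness was the root mean square difference of log2 CPM after centring each profile on its own mean, and 335 miRNAs were ranked. The nearest were miR-29a-3p (0.0879), miR-361-5p (0.102), miR-93-5p (0.136), miR-23a-3p (0.161) and miR-191-5p (0.163). Of these, miR-361-5p is also X-linked, with a mean of 119 ± 14.1 CPM over PiZ mice and 135 ± 35.9 CPM over WT mice (SD, n = 5 each). The median difference over all 335 was 0.539. Within the cluster, miR-500-3p ranked at 42 with 0.284, miR-501-3p at 198 with 0.646, miR-362-5p next to last of the members with 0.773 and miR-362-3p at 223 with 0.774. Rare miRNAs differ more from any profile through counting error, so these ranks also reflect depth.

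Other X-linked miRNAs were set beside the cluster. A list of 22 X-linked miRNA names outside Clcn5 gave 36 rows in the files, of which 17 were tested. 1 of the 17 rose in PiZ liver, where 8.33% of all tested miRNAs did, and 0 fell, where 0.893% did. The share that rose is near that background. The median log2 fold change was 0.46, against -0.085 for the 5 cluster members and 0.069 for all 336 miRNAs. The one that rose was miR-421-3p, a miRNA of the Ftx gene at the X-inactivation centre, averaging 74.6 ± 8.49 CPM over PiZ mice and 42.0 ± 6.69 CPM over WT mice (SD, n = 5 per genotype; log2 fold change 0.79, SE 0.19, adjusted p = 0.0297, edgeR). The most abundant of the list did not pass. miR-98-5p, a let-7 relative in the gene Huwe1, averaged 478 ± 49.8 CPM over PiZ mice and 251 ± 123 CPM over WT mice (SD, n = 5 per genotype; log2 fold change 0.89, SE 0.29, adjusted p = 0.0894, edgeR). miR-351-5p, of the cluster that also holds miR-322 and miR-503, had a log2 fold change of -0.069 (SE 0.27, adjusted p = 0.922, edgeR).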

How the data were processed

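Small RNA libraries were made with the TruSeq small RNA kit from 1 µg of miRNA-enriched liver RNA of 10 mice and run 2 times each, up to 12 libraries sharing a lane (labels' protocols). Per run, the authors deposited estimated counts per mature miRNA, with 19 to 32 values per file that are not whole. The submitters' processing notes name CASAVA. Not given in the sources used here: aligner, miRBase release, genome build and how multiply matching reads were handled.

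The runs of a mouse were summed and rounded, and the 880 names listed in every file were kept (at least 99.9991% of a library's reads). The files hold lists of 1399 or 990 names, and the list carried (file set) entered the model. edgeR 4.0.16 (filterByExpr on the model terms, which kept 336, TMM, quasi-likelihood F-test, Benjamini-Hochberg over all miRNAs tested, threshold 0.05) was the test. SE was computed as the size of the log2 fold change over the square root of F. The fit of genotype by file set used filterByExpr on the 4 groups and kept 372. CPM use TMM-scaled library sizes. log2 CPM for profiles used a prior count of 2. Arm ratios used limma 3.58.1 with a pseudocount of 0.5. Shares have exact Clopper-Pearson 95% intervals (scipy 1.17.1). Alternatives used DESeq2 1.42.0, sva 3.50.0 and limma-voom (R 4.3.3), and figures were drawn with matplotlib 3.10.9. The fits were also run on simulated data with known changes, and no result here rests on that. The simulated arm ratios were not drawn from low counts such as those of this cluster.

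All 9 members are named. Of other miRNAs, the rule named the 5 nearest profiles, the 2 most abundant of the X-linked list and those past 0.05, and seed relatives. Of the markers, hepatocyte, endothelial and mesenchymal miRNAs are printed because their sums were lowest in WT mice 1 and 3. The ratios between members and the contrast of file sets were chosen after values were seen. The members, lists and tests were chosen with earlier results of these data known. PiZ and WT mice bear unrelated numbers. Nothing in the labels says more of how the mice were bred or housed, so litter and cage could not enter the model. The p-values set each difference against the spread between these mice.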

Additional observations from a re-analysis of the deposited data

How the results depend on the processing

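The count of 0 cluster members past 0.05 between PiZ and WT liver was the same under 26 alternatives: other scalings, filters and tests, other model terms, each run or file set alone, and each mouse or WT mice 1 and 3 left out. The count of 0 was also the same for the genotype by file set test under 12 alternatives. For arm balance, no cluster hairpin reached the read minimum except miR-362 at a mean of 5 reads. Of 120 recomputed fold changes, 30 changed sign and none passed (smallest adjusted p 0.246). The cause was not tested.

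Leaving out 1 mouse gave log2 fold changes of -0.14 to 0.45 for miR-362-3p, -0.25 to 0.12 for miR-500-3p, -0.66 to -0.20 for miR-501-3p, -0.87 to -0.12 for miR-362-5p and -0.31 to -0.052 for miR-532-5p. With 1 surrogate variable the values were -0.33 for miR-362-3p, 0.20 for miR-500-3p, 0.32 for miR-501-3p and 0.21 for miR-532-5p. Without WT mice 1 and 3 they were -0.27, 0.17, 0.033 and 0.084 for the same 4, and with PiZ mouse 5 left out as well -0.37, 0.097, 0.022 and 0.018. From shorter-list libraries only, miR-500-3p was 0.090, miR-501-3p 0.38 and miR-532-5p 0.030. miR-362-3p was -0.052 with upper quartile scaling and -0.012 with no filter. miR-500-3p was 0.0035 with library totals, 0.030 with the filter set by genotype groups (chosen after seeing the data), 0.049 without the file set term, 0.011 from run 1, 0.088 from run 2 and 0.047 in limma-voom.

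Over all miRNAs, the count past 0.05 was 31 of 336. It was 13 of 300 with the filter set by genotype groups, 5 to 46 with 1 mouse left out, 0 without WT mice 1 and 3 or from shorter-list libraries only, 6 with 1 surrogate variable, 83 of 852 with no filter and 18 from run 2. The log2 ratio of the summed cluster was -0.22 with library totals and with RLE scaling, and was not recomputed with upper quartile scaling. It was -0.25 to -0.053 with 1 mouse left out, but 0.091 without WT mice 1 and 3. For miR-501-3p, the difference of PiZ over WT fold changes between file sets was 0.99 to 1.93 with 1 mouse left out and 0.91 without WT mice 1 and 3. Leaving both out of the sum, the shares, the file set contrast and that difference was chosen after seeing the data. Members with a mean under 2 CPM had 0 to 19 reads in a mouse, which limits what could be seen of them. No paired analysis was possible because mouse numbers in PiZ and in WT are names of unrelated animals, and the replicate numbers in the labels are technical runs.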
